A study of Homo sapiens with 6 samples.

Results

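The replication-dependent histone genes encode the linker histone H1 and the core histones H2A, H2B, H3 and H4, around which newly copied DNA is wrapped. They were taken as the rows of the deposited table whose symbol is H1-1 to H1-6 or begins with H2AC, H2BC, H3C or H4C followed by a number, which gave 66 of 19960 genes. The symbol rule itself uses no measured value, but this group of genes was chosen with earlier results of these data known. The cells were MKN28, a human gastric adenocarcinoma line that registers of misidentified lines list as derived from another gastric cancer line. The tested group was 3 libraries of stable cells carrying an shLTBP1 plasmid, a short hairpin RNA against LTBP1 (latent TGF-beta binding protein), and it was set against 3 libraries of stable cells carrying an shSCR (scrambled control) plasmid. Both groups were grown in the same serum-containing medium. The labels do not say whether each stable line was a clone or a pool, or whether its 3 libraries stand for separate cultures. The p-values therefore describe library-to-library spread, part or all of which may be technical.

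Replication-dependent histone genes lie in clusters, are transcribed mainly in S phase, and mostly lack introns. Their mRNAs usually end in a short conserved stem-loop, bound by the protein SLBP, in place of a poly(A) tail. Some of these genes also make longer, polyadenylated mRNAs, as described for differentiated cells and for cells that have left the cycle. The labels name a directional library kit for total RNA, and whether poly(A) RNA was selected or ribosomal RNA depleted is not given in the sources used here. A method that selects poly(A) tails captures few stem-loop mRNAs, so the levels below count whichever forms the libraries kept.

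The stem-loop is shown first because it is the feature that sets these genes apart from other mRNAs. A search of GENCODE release 29 transcripts after the stop codon for a 16-base stem-loop (arm GGCNCT, loop TNTN, arm AGNGCC, on the mRNA strand) found it in 28 of the 64 histone genes with an annotated coding transcript, and in 0.173% of all protein-coding genes (34 genes, these 28 included). It began 23 to 68 bases after the stop codon. Genes without a match include 32 whose annotated transcript ends at the stop codon, so no match says only that the letters are not in the annotated part. The 6 forms found are given below in DNA letters, each under 1 gene that carries it, with the paired arms of the stem in capitals and the loop in lower case.
H2AC6: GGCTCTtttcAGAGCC
H2BC5: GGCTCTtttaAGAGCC
H4C8: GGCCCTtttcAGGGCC
H4C14: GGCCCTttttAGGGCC
H3C6: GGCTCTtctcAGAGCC
H2AC11: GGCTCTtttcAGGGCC
The form shown for H2AC6 was carried by 15 genes, those for H2BC5 and H4C8 by 4 genes each, that for H4C14 by 3 and the remaining forms by 1 gene each. Every H4 gene with a match had the arm GGCCCT, while the H2A, H2B and H3 genes with a match had GGCTCT.

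LTBP1 itself checked the labels. Its normalized count was 59.0, 66.7 and 49.0 in the shLTBP1 libraries, against 977, 964 and 1011 in the shSCR libraries (log2 fold change -4.07 ± 0.12, limma adjusted p = 1.18e-08; exact two-sided permutation p = 0.1, the smallest that 3 against 3 allows). All 9 epithelial markers looked at were expressed, with summed counts of 315258 to 339817 in shLTBP1 and 341258 to 362243 in shSCR. That sum was mostly KRT8 and KRT18, and single markers moved apart. Of the 9, 4 rose, among them KRT7 (log2 fold change 1.27) and MUC1 (1.47), and 3 fell, among them EPCAM (-1.12) and CDH1 (-0.34). For comparison, 26.3% of all tested genes rose and 26.8% fell. Markers of other cell types had much lower sums. The 8 fibroblast genes summed to 706 to 931 in shLTBP1 and 1095 to 1342 in shSCR. The 5 endothelial genes summed to 23.9 to 33.0 in shLTBP1 and 35.6 to 52.1 in shSCR. Of these, 2 fibroblast genes and 1 endothelial gene reached a mean of 10. The fibroblast sum was mostly COL1A1, which fell to 805 ± 121 in shLTBP1, against 1213 ± 123 in shSCR. The other tested fibroblast gene, LUM, went the other way, at 41.5, 52.0 and 36.6 in shLTBP1 and listed at 0 in every shSCR library. The 8 blood genes summed to 33.0 to 50.2 in shLTBP1 and 23.7 to 949 in shSCR, where hemoglobin genes made up 936 in shSCR replicate 3 and 4.92 and 8.72 in replicates 1 and 2. THY1, a fibroblast marker, was at 0 in every library. Their part in the histone values was not tested. The deposited totals were 30479879 to 30941103 per library after normalization and do not show sequencing depth.

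In sum, the histone mRNA that these libraries counted was higher in shLTBP1. The sum holds whichever mRNA forms were kept, and the 26 genes tested below made up most of it (means 4150 in shLTBP1 and 1860 in shSCR). Summed over all 66 genes, the normalized count was 4289, 4603 and 4024 in the shLTBP1 libraries, against 1917, 2015 and 1915 in the shSCR libraries. Every shLTBP1 sum was above every shSCR sum, and the means were 4306 ± 290 and 1949 ± 57.4 (SD, n = 3 each), a ratio of 2.21. This is a small part of the RNA counted, 0.0132% to 0.0151% of the normalized counts in shLTBP1 and 0.00619% to 0.00653% in shSCR. In bulk RNA, more cells making histone mRNA and more histone mRNA per cell cannot be told apart. No test was made on the sum.

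The higher sum did not rest on 1 family. The H1 genes summed to 535 ± 96.1 in shLTBP1 and 229 ± 14.2 in shSCR, the H2A genes to 1077 ± 51.9 in shLTBP1 and 475 ± 17.1 in shSCR, and the H2B genes to 2004 ± 162 in shLTBP1 and 931 ± 25.2 in shSCR (SD, n = 3 each). The H3 genes summed to 241 ± 25.9 in shLTBP1 and 129 ± 10.9 in shSCR, and the H4 genes to 448 ± 73.5 in shLTBP1 and 185 ± 18.6 in shSCR. The ratios of these means were 2.34, 2.27, 2.15, 1.87 and 2.42 for H1, H2A, H2B, H3 and H4, and in each family the libraries of the groups did not overlap.

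**Figure D1:**
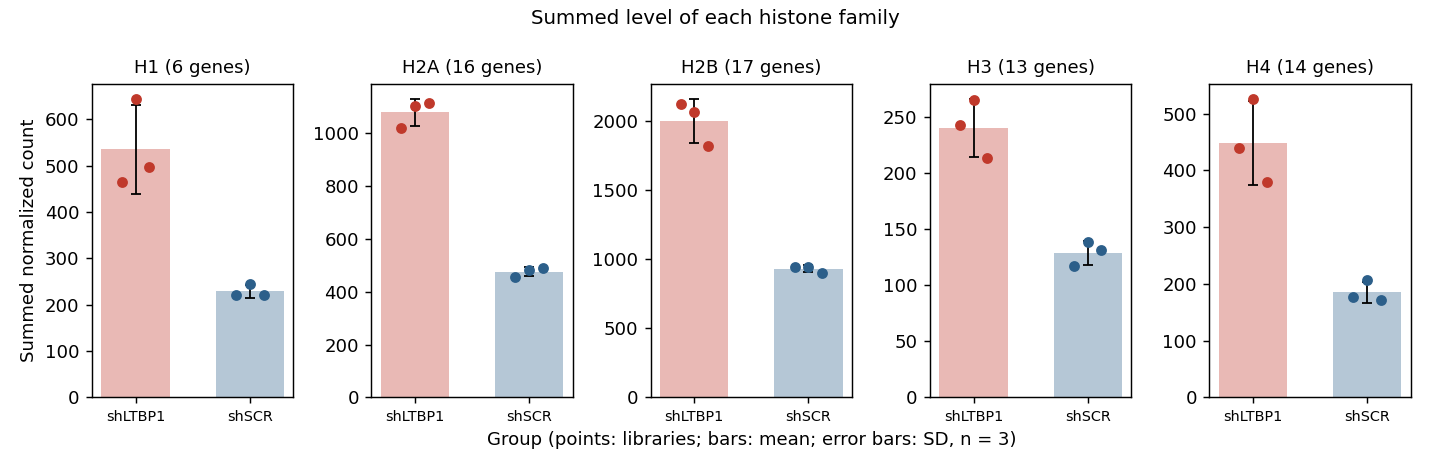
Summed normalized count of each histone family (y axis, own scale per panel, starting at 0) in shLTBP1 and shSCR, with points for the 3 libraries, bars for the mean and error bars for the SD. In all 5 families every shLTBP1 library lies above every shSCR library, with ratios of means from 1.87 for H3 to 2.42 for H4. The H1 sum is mostly H1-2, and the other H1 genes overlap between the groups when summed without it.

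Of the 66 genes, 26 had a mean of at least 10 over the 6 libraries and were tested. The test was limma on log2(value + 1) across all 12789 genes that passed the same minimum, and all fold changes here are on that scale, which understates the change of low genes. Of the 26, 19 rose, 1 fell and 6 did not pass an adjusted p of 0.05. Among all tested genes 26.3% rose and 26.8% fell. The median log2 fold change was 1.11 over the 26 genes and 0.00 over all tested genes, and 15 of the genes that rose had a log2 fold change of at least 1, which 4.54% of all tested genes reached. The groups did not overlap for 19 genes that were higher and 1 that was lower, against 30.2% and 30.6% of all tested genes. These 19 are not quite the 19 that rose. They include H2BC9, which did not pass. They leave out H2BC4, which rose although its groups overlapped (51.5 in shLTBP1 replicate 3, 53.7 in shSCR replicate 3).

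The minimum on the mean lets in a gene through the group where it is high, and 3 of the 26 (H2BC7, H4C11 and H2AC20) had a mean under 10 in 1 group. Among the 23 with a mean of at least 10 in each group, 18 rose, none fell and 5 did not pass. Under the same limit 26.1% of all tested genes rose and 26.9% fell. The 26 are thus the detected genes and not the whole family. The other 40 summed to 156, 195 and 116 in shLTBP1, against 80.5, 117 and 68.2 in shSCR, which overlap, and 5 of them (H1-1, H2AC1, H2BC1, H4C6 and H4C7) were listed at 0 in every library.

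**Figure D2:**
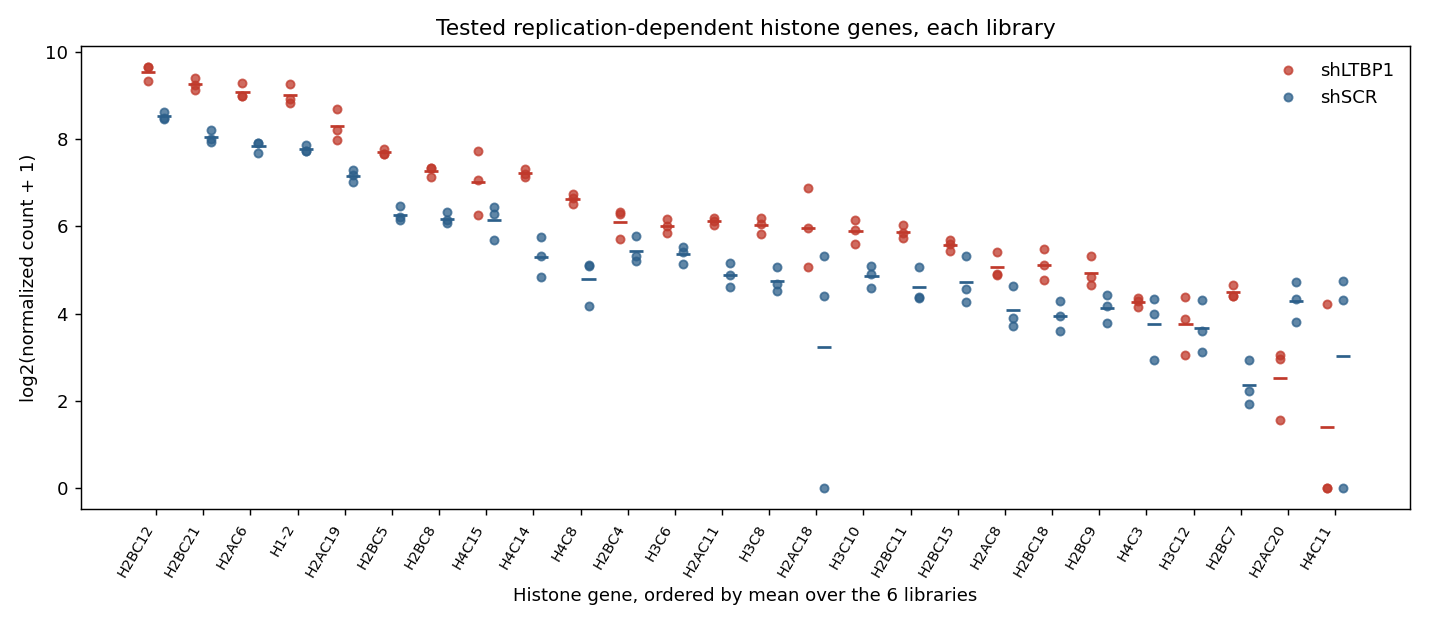
log2(normalized count + 1) in each library (y axis) of the 26 tested histone genes, ordered by their mean (x axis), with shLTBP1 points left of shSCR points and short lines for the group means. The points separate for most of the high genes on the left, where H2BC12 has 642 to 804 in shLTBP1 and 350 to 391 in shSCR. They overlap for H4C15, H2BC4 and H2AC18, and on the right for H4C3, H3C12 and H4C11. H2BC7 and H2AC20, also on the right, separate.

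Among linker histones, which bind the DNA between nucleosomes, only H1-2 was abundant enough to test, and it rose. The gene (ENSG00000187837) lies at chr6:26055787-26056428 on the minus strand in GENCODE release 29, a single coding exon. Its normalized count was 450, 616 and 486 in shLTBP1, against 212, 231 and 212 in shSCR (log2 fold change 1.23 ± 0.12 SE, limma adjusted p = 2.15e-05). All 3 shLTBP1 libraries were above all 3 shSCR libraries. The other 5 H1 genes each had a mean under 10 and summed to 18.4 ± 9.32 in shLTBP1 and 10.7 ± 2.99 in shSCR (SD, n = 3 each).

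Of 16 H2A genes, 6 were tested, of which 4 rose and 1 fell, against 26.3% and 26.8% of all tested genes. H2AC6, whose longest annotated transcript runs 1128 bases past its stem-loop, was at 508, 505 and 619 in shLTBP1, against 205, 240 and 239 in shSCR (log2 fold change 1.25 ± 0.11 SE, limma adjusted p = 1.06e-05). H2AC11 and H2AC8 rose with log2 fold changes of 1.22 and 0.97. H2AC18 and H2AC19, a duplicated gene with the same coding sequence in both copies, had shares of reads that moved from library to library. H2AC18 was at 117, 32.7 and 61.1 in shLTBP1 and at 20.2, 0 and 39.3 in shSCR, and it did not pass (adjusted p = 0.0692). H2AC19 was at 253, 409 and 295 in shLTBP1, against 143, 157 and 128 in shSCR, without overlap, and rose by 1.13 (SE 0.17, limma adjusted p = 0.000372). How the counting divided reads between such copies is uncertain. Their sum was steadier, at 370, 442 and 356 in shLTBP1 against 163, 157 and 167 in shSCR (log2 fold change 1.25 ± 0.11, limma adjusted p = 9.14e-06).

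H2AC20 was the exception and fell. Its count was 6.82, 1.98 and 7.36 in shLTBP1, against 19.2, 25.3 and 13.1 in shSCR (log2 fold change -1.76 ± 0.52 SE, limma adjusted p = 0.0174). The groups did not overlap, but the counts are low, and without shSCR replicate 2 its mean fell under the minimum so that it was not tested. The untested H2BC10 also had its 3 lower values in shLTBP1, 3.90, 3.95 and 3.15, against 14.4, 11.3 and 4.70 in shSCR. The annotated transcripts of both genes end at the stop codon.

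The H2B genes held the most tested members, 10 of 17, and 9 of these rose, against 26.3% of all tested genes. H2BC12 (ENSG00000197903) is annotated at chr6:27146418-27146798 on the minus strand, without an intron. It had 801, 804 and 642 in shLTBP1, against 350, 391 and 359 in shSCR (log2 fold change 1.02 ± 0.10 SE, limma adjusted p = 2.28e-05). H2BC21 had 673, 605 and 561 in shLTBP1, against 297, 254 and 245 in shSCR (1.21 ± 0.10, limma adjusted p = 8.48e-06). H2BC5 had 200.5, 216 and 203 in shLTBP1, against 86.9, 70.3 and 72.8 in shSCR (1.42 ± 0.13, limma adjusted p = 1.49e-05). In each of these genes every shLTBP1 library was well above every shSCR library, though H2BC12 varied among the shLTBP1 libraries. The groups were also apart for H2BC8, at 160.0, 160.2 and 139 in shLTBP1 and 69.9, 79.1 and 66.3 in shSCR. H2BC11, H2BC18, H2BC15 and H2BC4 rose by 1.25, 1.17, 0.85 and 0.67 on the log2 scale. H2BC7 rose by 2.12 from a low level, with 20.4, 24.1 and 20.1 in shLTBP1 and 6.70, 2.82 and 3.69 in shSCR. The gene that did not pass was H2BC9 (0.79, limma adjusted p = 0.0548), although its groups did not overlap.

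Of 13 H3 genes, 4 were tested and 3 rose, against 26.3% of all tested genes. H3C8 rose by 1.28, H3C10 by 1.02 and H3C6 by 0.65 on the log2 scale. H3C8 was at 72.7, 65.6 and 56.1 in shLTBP1, against 32.5, 24.5 and 22.1 in shSCR. H3C12 was at 13.6, 19.8 and 7.37 in shLTBP1 and 7.69, 18.8 and 11.3 in shSCR, so that the groups overlapped (limma adjusted p = 0.885). H3C14 and H3C15 have the same coding sequence and were listed with the same value in every library, each at 11.6, 12.1 and 8.47 in shLTBP1 and 2.87, 4.71 and 3.68 in shSCR. Their sum was 23.3, 24.2 and 16.9 in shLTBP1, against 5.74, 9.41 and 7.36 in shSCR (log2 fold change 1.41 ± 0.37 SE, limma adjusted p = 0.00956). It reached the minimum mean of 10 through the shLTBP1 libraries alone, so it could be tested only because it differed.

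The H4 genes encode nearly one protein, since 13 of the 14 share the same amino acid sequence in the annotation. Of these 14 genes, 5 were tested and 2 rose, H4C14 and H4C8, against 26.3% of all tested genes. H4C8 had 99.3, 106 and 90.1 in shLTBP1, against 17.1, 33.2 and 33.9 in shSCR (1.83 ± 0.27, limma adjusted p = 0.000303). H4C14 had 147, 140 and 159 in shLTBP1, against 27.6, 39.0 and 53.2 in shSCR (1.92 ± 0.23, limma adjusted p = 7.56e-05). Its copy H4C15 spread widely, with 133, 211 and 76.2 in shLTBP1 and 77.6, 86.4 and 50.6 in shSCR, and did not pass (adjusted p = 0.0512). The sum of the copies was 280, 351 and 235 in shLTBP1 and 105, 125 and 104 in shSCR, with a log2 fold change of 1.35 ± 0.16 SE (limma adjusted p = 6.52e-05). H4C11 and H4C12, also identical in coding sequence, alternated between 0 and up to 26.0 in single libraries. Their sum, 14.6, 18.5 and 17.8 in shLTBP1 against 26.0, 24.3 and 19.02 in shSCR, did not pass (-0.42 ± 0.29, limma adjusted p = 0.254). H4C3 did not pass either (0.51, limma adjusted p = 0.326), and its log2 fold change was 0.098 without shSCR replicate 3 and 0.80 without shSCR replicate 1. With all 4 sets of identical copies summed, a choice made after their values were seen, 25 rows were tested and 20 rose, with 26.3% of all rows rising, among them the H3C14 and H3C15 sum with its limit above, while H2AC20 alone fell, with 26.8% of all rows falling.

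**Figure D3:**
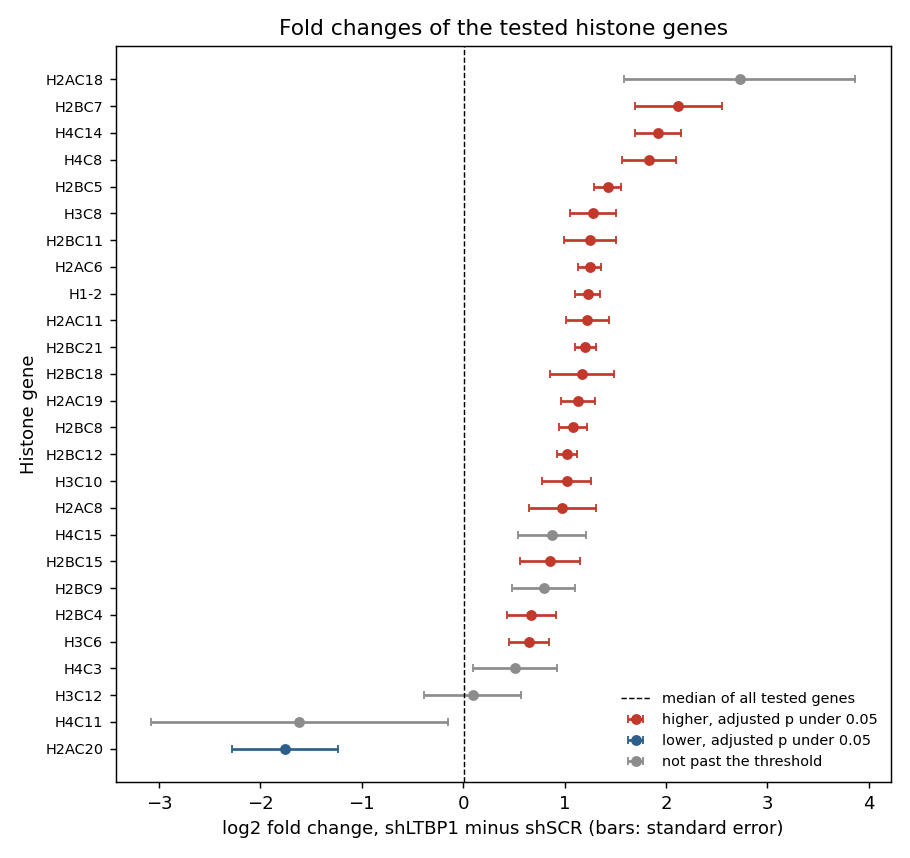
log2 fold change of shLTBP1 minus shSCR (x axis) with its standard error for the 26 tested histone genes (y axis, sorted), coloured by whether the limma adjusted p was under 0.05; the dashed line is the median of all tested genes. The genes that rose run from 0.65 (H3C6) to 2.12 (H2BC7), H2AC20 stands at -1.76, and the widest error belongs to H4C11.

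The smallest of the rises depended on single libraries. H3C6, H2BC4, H2BC15 and H2AC8 each lost the call when 1 library was left out. H2BC4 lost it without any one of shLTBP1 replicates 1 and 2 and shSCR replicates 1 and 2 (log2 fold change 0.56 to 0.61, limma adjusted p = 0.0991 to 0.121). H2BC15 lost it without any one library other than shSCR replicate 3 (0.63 to 0.92, limma adjusted p = 0.0594 to 0.109). H2AC8 lost it without any one of shLTBP1 replicates 1 and 2 and shSCR replicates 2 and 3 (0.79 to 1.05, limma adjusted p = 0.0567 to 0.108). H3C6 lost it without any one of shLTBP1 replicates 1 and 3 and shSCR replicate 1 (0.54 to 0.65, limma adjusted p = 0.0528 to 0.0683). The other 15 genes that rose passed under every alternative that tested them.

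Levels can be compared between genes only per length. Per kilobase of the longest annotated transcript, the mean over the 6 libraries was 1464 for H2BC12, 573 for H1-2, 409 for H2AC19, 232 for H2AC6, 200.2 for H2BC21 and 179 for H2BC5. These 6 genes were above 100 per kilobase, and the next was H2BC4 at 85.3. The annotated transcripts of H2BC12 and H1-2 hold no bases past the stop codon, so their lengths, 381 and 642 bases, may be too short and their levels per kilobase too high. The annotation that the authors counted with is not given in the sources used here.

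The detected genes were mostly those with a long annotated mRNA. With a dividing line of 200 annotated bases past the stop codon, chosen after the values were seen, 22 genes reached it, and 17 of these were abundant enough to test. Of 42 genes that did not, 9 were. A poly(A) signal (AATAAA or ATTAAA) stood in the last 40 bases of a transcript of 19 of the 22 genes and of 3 of the 42. Among the 17 long genes tested 15 rose and 2 did not pass, and among the other 9 there were 4 that rose, 1 that fell and 4 that did not pass. Of all tested genes, 26.3% rose and 26.8% fell. The difference between the long genes and the others was not tested. A longer transcript also collects more reads, and the median level was 20.5 per kilobase for the 22 genes and 6.61 per kilobase for the 42. A list of 9 genes was written from general knowledge as making polyadenylated mRNA (H1-2, H2AC6, H2AC18, H2AC19, H2BC4, H2BC5, H2BC12, H2BC21 and H4C8). All 9 were tested and 8 rose, against 26.3% of all tested genes, with a median log2 fold change of 1.23. That list was written with earlier results of these data known and is not independent evidence.

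**Figure D4:**
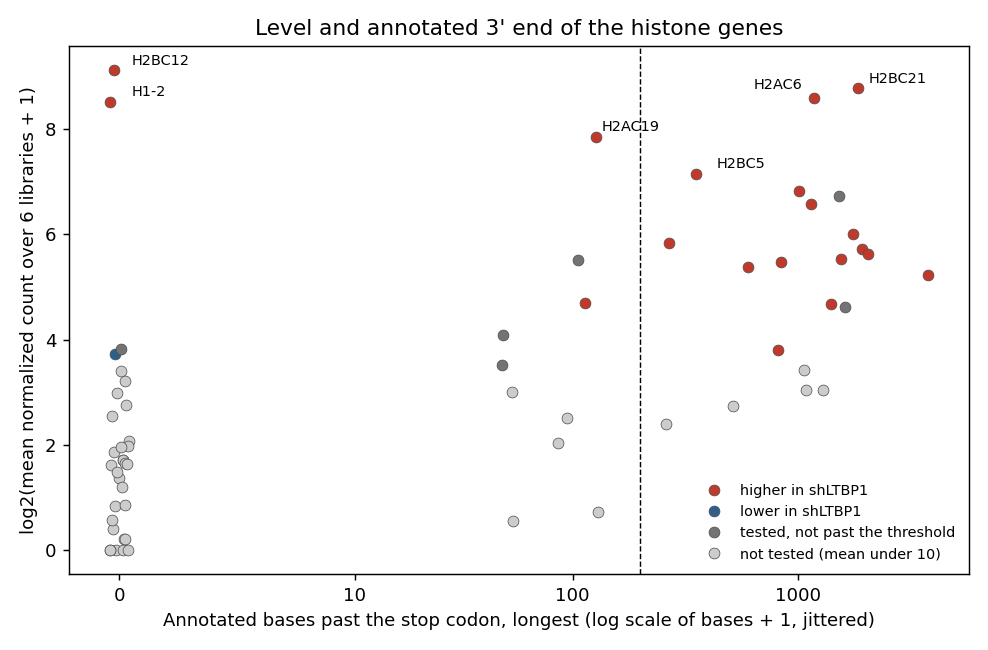
Mean level of each of 64 annotated histone genes (y axis, log2 of the mean normalized count + 1) against the longest annotated stretch past its stop codon (x axis, log scale of bases + 1, points jittered), coloured by the outcome of the test. Right of the dashed line at 200 bases 17 of 22 genes are tested, and left of it 9 of 42 are, among them H2BC12 and H1-2 with no annotated bases past the stop codon.

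H2A and H2B genes often stand head to head and share the stretch between their starts. In GENCODE release 29 there were 10 such pairs with starts at most 500 bases apart, and both genes were tested in 4 of them. Both genes rose in 3 of these 4: H2AC11 and H2BC11 (1.22 and 1.25), H2AC6 and H2BC4 (1.25 and 0.67), and H2AC8 and H2BC8 (0.97 and 1.08 on the log2 scale). Of all tested genes, 26.3% rose. H2BC4 and H2AC8 each lost the call when certain single libraries were left out. Other pairs were unequal. Beside H2BC12, at 642 to 804 in shLTBP1 and 350 to 391 in shSCR, H2AC12 had 0 to 3.90 in shLTBP1 and 0.962 to 3.75 in shSCR. H2AC20, which fell, stands head to head with H2BC21, which rose, 322 bases apart. The difference between partners was not tested.

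Promoter sequence is given for 3 H2B genes that rose. H2BC12 and H2BC21 had the highest mean counts of the histone genes, and H2BC5 was the marker gene picked for the group. Each run holds the 250 bases before the start, from RefSeq on GRCh38.p14, the assembly that hg38 names. Capitals mark every match on either strand, overlaps included, to 3 motifs. TATAAA is the TATA box, and CCAAT is the CCAAT box. The octamer bound by OCT1, known from H2B promoters, was searched as ATTTGCAT. H2BC5 lies at chr6:26157871-26158120 on the plus strand, H2BC12 at chr6:27146859-27147108 on the minus strand, and H2BC21 at chr1:149886683-149886932 on the minus strand, a window that fills most of the gap to H2AC20.
H2BC5: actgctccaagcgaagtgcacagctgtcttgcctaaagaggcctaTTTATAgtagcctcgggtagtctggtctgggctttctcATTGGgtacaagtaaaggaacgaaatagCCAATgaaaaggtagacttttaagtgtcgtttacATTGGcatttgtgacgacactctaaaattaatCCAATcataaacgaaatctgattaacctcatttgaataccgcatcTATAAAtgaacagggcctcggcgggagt
H2BC12: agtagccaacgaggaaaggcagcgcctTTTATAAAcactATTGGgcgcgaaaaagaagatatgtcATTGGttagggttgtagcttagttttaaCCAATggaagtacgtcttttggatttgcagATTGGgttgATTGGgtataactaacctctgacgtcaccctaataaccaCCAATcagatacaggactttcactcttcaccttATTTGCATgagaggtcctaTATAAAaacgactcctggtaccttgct
H2BC21: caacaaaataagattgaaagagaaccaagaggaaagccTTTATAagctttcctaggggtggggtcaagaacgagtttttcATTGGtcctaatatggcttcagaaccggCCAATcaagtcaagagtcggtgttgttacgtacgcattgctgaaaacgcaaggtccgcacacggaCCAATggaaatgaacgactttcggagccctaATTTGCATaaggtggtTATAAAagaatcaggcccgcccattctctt
H2BC5 held 4 CCAAT matches and no octamer, H2BC12 held 6 and 1, and H2BC21 held 3 and 1. In the full windows of RefSeq, which run 50 bases further, the octamer stood in 14 of 17 H2B genes and 11 of 15 H2A genes, in 1 of 11 H3 genes and in no H1 or H4 gene, against 2.19% of all genes with a window. CCAAT stood in every H1, H2A, H2B and H3 gene with a window, in 3 of 12 H4 genes and in 39.7% of all genes. TATAAA stood in 42 of the 61 histone genes with a window and in 14% of all genes. A match is a description of the sequence and says nothing of a factor binding there.

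Of the 64 placed genes, 53 lie on chromosome 6 and 11 on chromosome 1. Around every tested histone gene, the 25 nearest tested non-histone genes on each side had median log2 fold changes between -0.08 and 0.01. With that median subtracted 21 rose and 1 fell, where the fit without it gave 19 and 1. Of all 12740 genes fitted with the median subtracted, 3092 rose and 3137 fell. Exons of another gene overlap 4 tested genes on the opposite strand (H2BC18, H4C14, H4C15 and H2BC15) and 2 on the same strand (H2BC15 and H3C12). Except for H2BC18, the partners are histone genes of this group. They are H3C14 for H4C14, H3C15 for H4C15, H2AC15 and H2AC16 for H2BC15, and H2AC17 for H3C12. The strand setting of the counting is not given in the sources used here, so reads of these genes and their partners may be mixed. The rises of the H4C14 and H4C15 sum and of the H3C14 and H3C15 sum may thus not be separate.

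The list of histone variants and other histone genes holds 19 genes, of which 13 were tested, 7 rose and 2 fell (median log2 fold change 0.15), against 26.3% and 26.8% of all tested genes. H4-16, an H4 gene outside the main clusters, had 88.4, 48.9 and 46.1 in shLTBP1, against 19.1, 25.8 and 27.0 in shSCR, and rose by 1.27. H2BU1, an H2B gene outside them, had 30.0, 29.3 and 30.7 in shLTBP1, against 11.5, 4.71 and 6.43 in shSCR, and rose by 1.94. It too reached the minimum mean through shLTBP1 alone. H2AX, the H2A variant that is phosphorylated at DNA breaks, averaged 4680 ± 461 in shLTBP1 and 2513 ± 94.8 in shSCR (SD, n = 3 each; log2 fold change 0.89, limma adjusted p = 4.88e-06). CENPA, the H3 variant of centromeres, fell by 0.49. It lies on chromosome 2, and relative to its neighbours' median its log2 fold change was 0.14 (limma adjusted p = 0.127). Here and for the genes below, the cause of a shift shared with neighbours was not tested. H3-3B, which encodes the replication-independent H3.3, had 15992 to 17664 in shLTBP1 and 14838 to 15615 in shSCR (0.15, limma adjusted p = 0.0229).

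Of 26 tested genes for transcription, 3′ processing and decay of histone mRNA, 10 rose and 5 fell (median log2 fold change 0.00), against 26.3% and 26.8% of all tested genes. SLBP, which binds the stem-loop, was at 4157 ± 133 in shLTBP1 and 3705 ± 276 in shSCR (SD, n = 3 each). It rose by 0.17 (limma adjusted p = 0.0389), but lost the call under 6 alternatives, among them leaving out any one of shLTBP1 replicates 1 and 3 and shSCR replicates 1 and 3 (log2 fold change 0.11 to 0.18, limma adjusted p = 0.0648 to 0.150). Relative to its neighbours' median SLBP stood at 0.02 (limma adjusted p = 0.791). NPAT, the coactivator that cyclin E and CDK2 phosphorylate at histone genes, rose by 0.195 (limma adjusted p = 0.0248), and lost the call without any one of shLTBP1 replicates 1 and 3 and shSCR replicates 1 and 2 (0.14 to 0.20, limma adjusted p = 0.0510 to 0.103). CASP8AP2, a scaffold of histone mRNA processing, rose by 0.25 (limma adjusted p = 0.0191), and lost it without shLTBP1 replicate 3 or without shSCR replicate 1 (0.18 and 0.23, limma adjusted p = 0.0558 and 0.0672), and relative to its neighbours' median (0.19, limma adjusted p = 0.0793). The largest rises were in TUT7, a uridylyltransferase of histone mRNA decay (0.44), and HINFP, a transcription factor of H4 genes (0.42), and TUT7 stood at -0.11 relative to its neighbours' median (limma adjusted p = 0.0985). CRAMP1 fell by 0.60, and lost the call without shLTBP1 replicate 2 (-0.38, limma adjusted p = 0.0809) or without shSCR replicate 1 (-0.42, limma adjusted p = 0.105). WDR33, on chromosome 2, fell by 0.50 and stood at 0.15 relative to its neighbours' median (limma adjusted p = 0.0567).

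Of 22 tested chaperones and assembly factors that carry histones to DNA, 5 rose and 5 fell (median log2 fold change 0.01), against 26.3% and 26.8% of all tested genes, which are close shares. ASF1B, an H3-H4 chaperone of cycling cells, rose by 0.57, and CHAF1A, a subunit of the assembly factor CAF-1, by 0.33. HAT1, which acetylates new H4, and HJURP, the CENPA chaperone, fell by 0.57 and 0.53. Both lie on chromosome 2, and relative to their neighbours' medians they stood at -0.06 and -0.04 (limma adjusted p = 0.387 and 0.614).

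Genes of the G1/S transition and DNA replication, the phase in which histone genes are transcribed, mostly rose. Of 36 tested, 25 rose and 3 fell (median log2 fold change 0.23, beside 1.11 for the tested histone genes), against 26.3% and 26.8% of all tested genes. GINS3, part of the replicative helicase, rose by 0.84, and RFC4, a clamp loader subunit, by 0.77, or 0.25 relative to its neighbours' median. CDK2 was at 5191 ± 333 in shLTBP1 and 3983 ± 233 in shSCR (SD, n = 3 each; log2 fold change 0.38, limma adjusted p = 0.000547). Its partner CCNE1 fell to 284 ± 26.4 in shLTBP1, against 417 ± 41.2 in shSCR (-0.55, limma adjusted p = 0.00176). The other cyclin E gene, CCNE2, named after its values were seen, rose to 981 ± 121 in shLTBP1, against 618 ± 20.99 in shSCR (SD, n = 3 each; 0.66, limma adjusted p = 0.00021). MCM6, on chromosome 2, fell by 0.44 and stood at 0.17 relative to its neighbours' median (limma adjusted p = 0.00695).

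Of 17 tested genes linked to leaving the cell cycle, 6 rose and 2 fell (median log2 fold change 0.01), against 26.3% and 26.8% of all tested genes. The CDK inhibitor genes CDKN2C and CDKN2D rose by 0.83 and 0.67. E2F5, a repressive E2F factor, fell to 109 ± 4.58 in shLTBP1, against 427 ± 57.0 in shSCR (SD, n = 3 each; log2 fold change -1.96, limma adjusted p = 8.69e-07), and CCNG1 fell by 0.58. The part of cell cycle stage in the histone values was not tested.

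**Figure D5:**
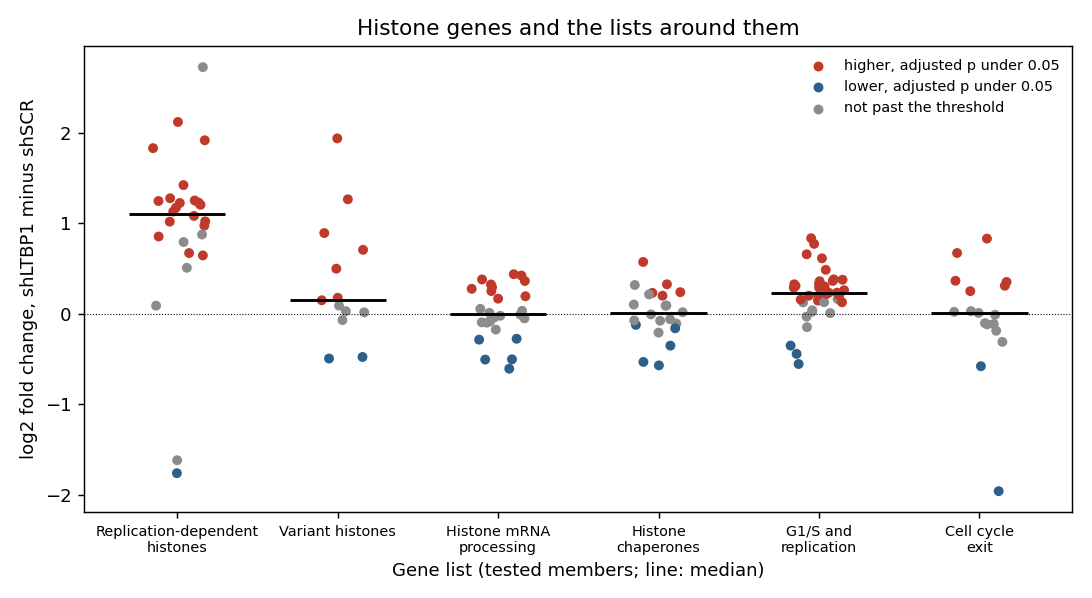
log2 fold change of shLTBP1 minus shSCR (y axis) for the tested replication-dependent histone genes and for each tested gene of 5 lists around them (x axis), with lines for the medians and colours for the limma call. The histone genes have a median of 1.11, replication genes 0.23, variant histones 0.15, and the 3 other lists lie between 0.00 and 0.01.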

How the data were processed

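RNA was measured in 3 shLTBP1 and 3 shSCR libraries of MKN28 cells, grouped by the plasmid label. The submitters' processing notes name FastQC (0.10.1), STAR (2.7.3a), RSEM (1.3.1), DESeq2 and hg38. The deposited values are a signal, gene read counts scaled by the authors with DESeq2 (the sources used here do not give its version, the annotation or the strand setting). They are fractional and whole reads could not be recovered, so depth is unknown.

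Genes with a mean of at least 10 were tested in limma 3.58.1 (R 4.3.3), using log2(value + 1), group as the only term, a mean-dependent trend, and Benjamini-Hochberg adjustment over 12789 genes. The code was also run on simulated independent counts with few changed genes. That setting is unlike these data, so the run does not bear on the calls made here. Positions and transcripts came from GENCODE release 29 (19872 identifiers matched; H3C2 and H3C3 did not). The histone genes and all lists were chosen with earlier results of these data known. Histone genes with a mean of at least 100 are given by library, and others given so were chosen after their values were seen. From each other list the 2 largest rises and 2 largest falls are named, with SLBP, NPAT, CASP8AP2, H2AX, CCNE1 and CDK2 (1 gene of this rule is not reported here); H3-3B, CCNE2 and the cell type markers were added after their values were seen. Alternatives were other pseudocounts, filters, scalings and variance models, the replicate number as a block, single libraries left out and neighbour medians subtracted; identical copies summed, and neighbour medians for other genes, were added after seeing the data.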

Additional observations from a re-analysis of the deposited data

How the results depend on the processing

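The count of histone genes that rose was 19, and it lay between 15 and 22 under all alternatives except a mean of at least 50, which tested 12 of these genes and called 11 higher and 0 lower. Leaving out single libraries gave 15 to 20 that rose and 0 to 1 that fell; without shSCR replicate 2, H2AC20 was not tested. The count of all genes that rose ran from 2883 to 3856. Over 419 values of single histone genes under alternatives, 386 kept direction and side of the threshold, 20 lost the call, 10 gained it and 3 changed sign. The sign changes were all in H3C12, which never passed, with log2 fold changes of -0.026 under quantile normalization, -0.21 without shLTBP1 replicate 2 and -0.19 without shSCR replicate 1; leaving out single libraries gave -0.21 to 0.44. H2BC4 also lost its call with no filter on low values, with quantile normalization and with the replicate block (limma adjusted p = 0.0545 to 0.0648), and H2BC15 with no filter (0.0514 as adjusted p). H2AC18 passed at a pseudocount of 5, without shSCR replicate 3 and with the replicate block (adjusted p = 0.00716). H4C15 passed without shLTBP1 replicate 3 and with the replicate block (adjusted p = 0.00314), and H2BC9 without the variance trend (adjusted p = 0.0323). H4C15 and H2BC9 also passed under upper quartile scaling and with neighbour medians subtracted; the cause was not tested. The H1 sum without H1-2 had a ratio of means of 1.72, in place of 2.34, from genes under the minimum. With the replicate block 20 histone genes rose and 1 fell, among 3347 and 3408 of all genes. Deviations of same-numbered libraries correlated at -0.01, 0.06 and -0.00, and those of other library pairs at -0.04 to 0.04. These values cannot decide whether equal numbers share a culture or batch, so pairing is not known here. LTBP1 kept its call under every alternative, with log2 fold changes of -4.17 to -3.95, and of -3.48 relative to its neighbours' median. Upper quartile scaling put the median of all genes at 0.05. Counts under about 20, as for H2AC20, are the least certain.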
